A study of Rattus norvegicus with 6 samples.

Results

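Kupffer cells are the macrophages that live in the sinusoids of the liver. They take up particles, bacteria, spent red cells and complement-coated material from portal blood, and in the adult liver they largely maintain themselves by division. In injured liver, monocytes from blood can enter, become macrophages and take up some of the resident cells' genes. The levels of 10 genes commonly used to mark resident Kupffer cells were followed here in rat liver after carbon tetrachloride (CCl4), a solvent that pericentral hepatocytes convert to a reactive radical. They were chosen by symbol and are Clec4f, Vsig4, Marco, Cd163, Cd5l, Adgre1, C1qa, C1qb, C1qc and Cd68. Every probe whose RefSeq accession belonged to one of them was taken, which gave 17 probes for the 10 genes, of 11939 genes tested on the array.

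The livers came from male Sprague-Dawley rats (Crl:CD(SD)), bought at 5 weeks of age. CCl4 was given to 3 rats at 100 mg per kg per day and corn oil to 3 rats. Each rat gave 1 array, and the labels name no other agent or allele. The treatment protocol gives 9 weeks of dosing, whereas the design text places the measurement at 28 days, so the exposure time is not settled. Total RNA of whole liver was labelled with Cy3 and read on 1-colour Agilent rat arrays. All levels below are log2 processed signals minus the 75th percentile of the same array, so 0 is the level of that percentile. Differences are CCl4 minus corn oil on that log2 scale, and since probes differ in brightness, levels are compared between animals and not between genes.

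The 75th percentile was 582.6 to 675.6 signal units, 61.9% to 67.3% of probes were well above background, and the number of arrays limits the precision. The lowest share, 61.9%, was that of CCl4 replicate 1, and the next lowest was 64.7%. All 17 probes were well above background on all 6 arrays and none was saturated. The hepatocyte list, including Alb, the albumin gene, was tested in full (11 of 11 genes), as was the list of general macrophage genes (13 of 13), so RNA of both cell types was measured. All corn oil arrays and CCl4 replicate 1 shared a slide, and CCl4 replicates 2 and 3 were on another slide scanned on another day. Slide and treatment can therefore be told apart only through CCl4 replicate 1.

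None of the 10 genes passed the test over all genes (limma, Benjamini-Hochberg, threshold 0.05), which called 0.637% of genes on these arrays. The difference was negative for 8 members and positive for 2, with a median of -0.36, beside -0.05 over all genes tested, of which 57.2% were negative. At an unadjusted p under 0.05, 4 members differed, 3 lower and 1 higher, against 9.77% and 9.95% of all genes. C1qc was lower in every CCl4 animal than in any corn oil animal, a pattern that 15.9% of all genes shared. Marco was higher in every CCl4 animal, as were 11.5% of all genes, and the groups overlapped for the other 8 members. In whole liver, fewer Kupffer cells and less RNA of a gene per cell cannot be told apart.

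**Figure D1:**
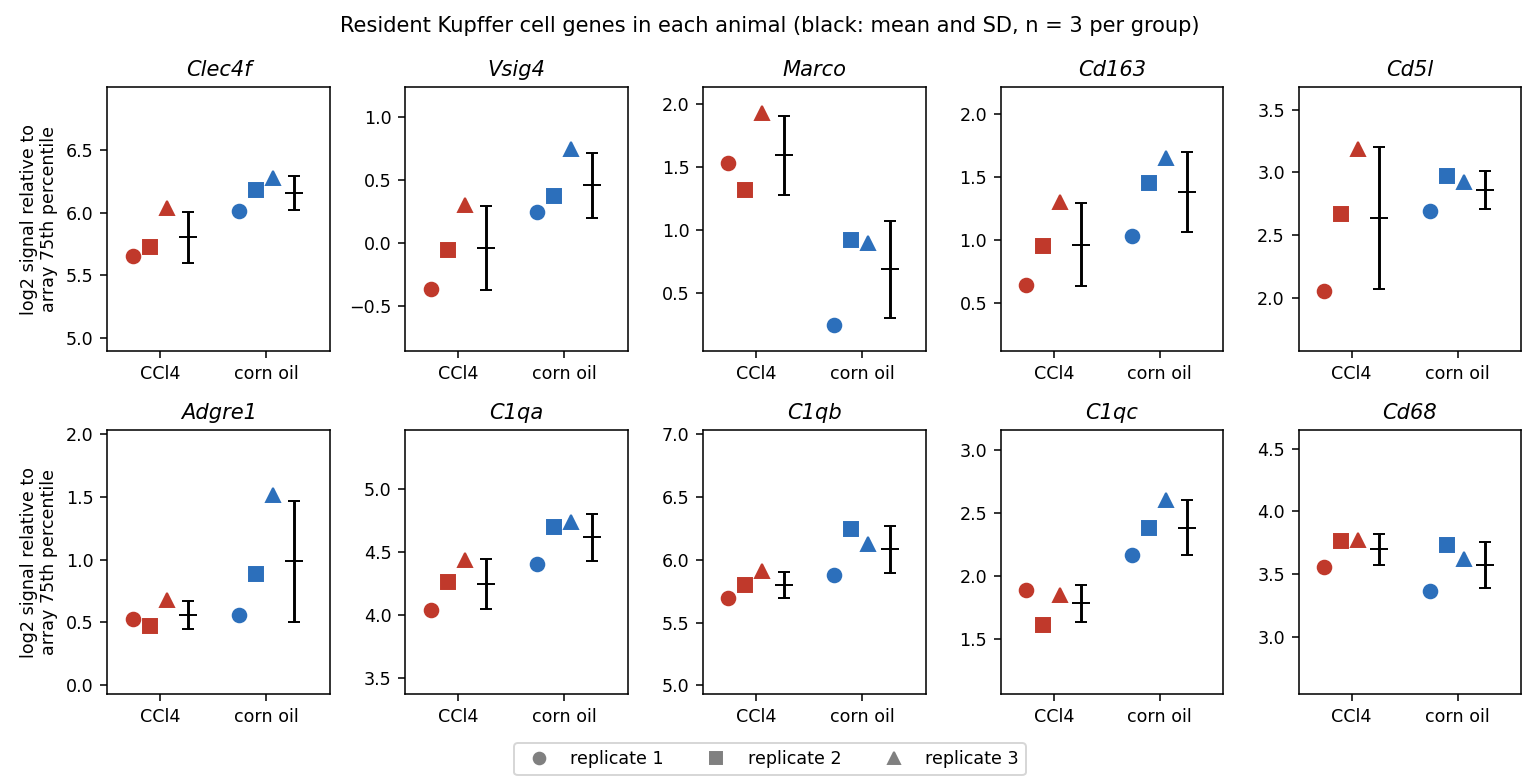
Log2 signal relative to the array's 75th percentile (y axis) of each of the 10 genes, for the 3 CCl4 animals on the left and the 3 corn oil animals on the right of each panel; shapes give the replicate number and black bars the mean and SD. C1qc lies lower and Marco higher in all CCl4 animals, and in the other panels the groups overlap.

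Promoter sequences from RefSeq (build GRCr8), read as the 250 bases before each annotated start, were matched for 9 members, all but C1qc. They are shown for C1qa and C1qb, which encode chains of the same protein and had alike differences, for Clec4f, whose values across the arrays lay close to those of C1qa, and for Marco, which went the other way. Capitals mark exact matches on either strand. The first motif searched was GAGGAA, a core of the site of PU.1, which is a transcription factor of macrophages. The second was the half-site of the large MAF factors, spelled TGCTGA here. The third, TATAAA, is the core promoter box named after its letters. The matches did not overlap each other.
C1qa: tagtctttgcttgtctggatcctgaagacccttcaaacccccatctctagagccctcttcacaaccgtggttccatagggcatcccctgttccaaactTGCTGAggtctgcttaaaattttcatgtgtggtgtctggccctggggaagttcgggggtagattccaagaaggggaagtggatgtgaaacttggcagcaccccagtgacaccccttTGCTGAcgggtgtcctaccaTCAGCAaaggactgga
C1qb: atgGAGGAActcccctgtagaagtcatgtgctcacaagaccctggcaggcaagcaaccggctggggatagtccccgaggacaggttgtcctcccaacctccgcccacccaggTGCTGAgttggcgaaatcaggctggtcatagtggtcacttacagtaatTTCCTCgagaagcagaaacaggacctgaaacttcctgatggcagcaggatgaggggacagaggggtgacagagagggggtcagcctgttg
Clec4f: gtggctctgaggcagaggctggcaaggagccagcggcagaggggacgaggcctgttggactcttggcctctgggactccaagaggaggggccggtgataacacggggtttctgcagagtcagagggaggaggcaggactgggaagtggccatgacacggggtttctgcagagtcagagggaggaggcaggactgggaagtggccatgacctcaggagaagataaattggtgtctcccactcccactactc
Marco: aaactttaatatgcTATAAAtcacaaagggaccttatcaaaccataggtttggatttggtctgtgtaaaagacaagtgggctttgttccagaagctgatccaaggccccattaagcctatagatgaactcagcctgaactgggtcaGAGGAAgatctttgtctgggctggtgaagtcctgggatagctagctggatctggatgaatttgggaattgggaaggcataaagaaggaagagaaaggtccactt
The C1qa stretch is chr5:154419934-154420183, the C1qb stretch chr5:154407828-154408077, the Clec4f stretch chr4:117696408-117696657 and the Marco stretch chr13:34201256-34201505, all on the minus strand. For Marco, and also for Cd163 and Adgre1, the start used lies inside the span that RefSeq gives for the gene, so the stretch precedes the start of an inner transcript and not the outer end of the gene. C1qa held 3 MAF half-sites, the nearest to the start from -16 to -11, and C1qb held 1, with 2 PU.1 sites. Over the 9 members, a PU.1 site was found in 5 (C1qb, Cd5l, Adgre1, Cd68 and Marco), against 23.3% of 33469 promoters of the same length. A MAF half-site was found in 4 (C1qa, C1qb, Cd5l and Adgre1), against 15.1%, and the third motif in Marco, against 12.9%. In Marco the third motif lay from -236 to -231, near the far end of the stretch and not close to the start used. These matches describe the letters and say nothing of binding.

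Clec4f encodes a sugar-binding C-type lectin of the cell surface that in rodents is largely restricted to Kupffer cells. It measured 5.65, 5.73 and 6.04 in the CCl4 animals, against 6.01, 6.18 and 6.28 in the corn oil animals. CCl4 replicates 1 and 2 lay below all corn oil animals and CCl4 replicate 3 lay just above corn oil replicate 1. The difference was -0.35 ± 0.14 (SE, n = 3 each), with a 95% interval from -0.70 to -0.0087, and it did not pass (limma adjusted p = 0.247). That corresponds to a level 1.28-fold lower.

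Vsig4 encodes the complement receptor CRIg, with which Kupffer cells catch C3-coated bacteria from blood. It stood at -0.37, -0.06 and 0.30 in CCl4 livers and at 0.24, 0.37 and 0.75 in corn oil livers. The lowest 2 values were those of CCl4 replicates 1 and 2, and CCl4 replicate 3 fell between corn oil replicates 1 and 2. The difference of -0.50 ± 0.21 did not pass (95% interval -1.01 to 0.017, limma adjusted p = 0.262).

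The scavenger receptors did not move as a block. Marco, a class A scavenger receptor with a collagen-like stalk that binds bacteria and particles, measured 1.53, 1.32 and 1.93 in CCl4 animals and 0.24, 0.92 and 0.90 in corn oil animals. The lowest CCl4 value was thus above the highest corn oil value, and corn oil replicate 1 was well below the other corn oil animals. The difference of 0.91 ± 0.24 (95% interval 0.32 to 1.50), or 1.87-fold, missed the threshold over all genes (limma adjusted p = 0.129).

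Cd163, the receptor that takes up haptoglobin-bound haemoglobin and the antigen of the ED2 antibody used on rat tissue macrophages, measured 0.64, 0.95 and 1.30 in CCl4 livers and 1.03, 1.45 and 1.65 in corn oil livers. Its order of animals was the same as for Vsig4 in each group. The difference was -0.42 ± 0.23 (95% interval -0.96 to 0.13, limma adjusted p = 0.353). Cd5l, a secreted protein of the scavenger receptor cysteine-rich family made by tissue macrophages, was the most variable member within CCl4 livers. It measured 2.06, 2.67 and 3.18 in CCl4 animals and 2.69, 2.97 and 2.92 in corn oil animals, so CCl4 livers held both the lowest and the highest of the 6 values. Its difference of -0.23 ± 0.28 had a wide interval, from -0.91 to 0.45 (limma adjusted p = 0.681), and was 0.06 without CCl4 replicate 1.

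C1qa, C1qb and C1qc encode the 3 chains of C1q, the recognition part of the first complement component, and lie next to each other in the rat genome, with C1qc between the other two. C1qa measured 4.04, 4.26 and 4.44 in CCl4 animals and 4.41, 4.70 and 4.74 in corn oil animals, a difference of -0.37 ± 0.15 (95% interval -0.74 to -0.0033, limma adjusted p = 0.251). C1qb measured 5.70, 5.80 and 5.91 in CCl4 animals and 5.88, 6.24 and 6.13 in corn oil animals, a difference of -0.28 ± 0.13 (95% interval -0.60 to 0.035, limma adjusted p = 0.292). For both chains CCl4 replicate 3 alone reached into the corn oil range, and only past corn oil replicate 1.

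C1qc separated the groups on the probe that stands for it, with 1.88, 1.61 and 1.85 in CCl4 livers and 2.17, 2.38 and 2.61 in corn oil livers. Its difference was -0.60 ± 0.15 (95% interval -0.97 to -0.24), a level 1.52-fold lower, with the lowest adjusted p of the members (limma, 0.110). The other C1qc probe measured 0.05, 0.23 and 0.44 in CCl4 livers and 0.32, 0.63 and 0.74 in corn oil livers, and there the groups overlapped. On that probe the difference was -0.32, so the separation of C1qc rests on 1 of its 2 probes.

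Adgre1 and Cd68 are markers of macrophages more widely. Adgre1, an adhesion receptor gene whose product is the standard macrophage antigen in mice, measured 0.52, 0.47 and 0.68 in CCl4 animals and 0.56, 0.88 and 1.51 in corn oil animals. The corn oil spread (SD 0.48) exceeded the size of the difference of -0.43 ± 0.24 (95% interval -1.02 to 0.16, limma adjusted p = 0.370). Without corn oil replicate 3, the highest of that group, it was -0.17. Cd68, a glycoprotein of lysosomes and late endosomes and the antigen of the ED1 antibody, measured 3.56, 3.77 and 3.77 in CCl4 animals and 3.37, 3.73 and 3.62 in corn oil animals. Its difference was 0.13 ± 0.13 (95% interval -0.20 to 0.45, limma adjusted p = 0.628), and CCl4 replicate 1 lay within the corn oil range. Dropping corn oil replicate 1 gave 0.02 and dropping either CCl4 replicate 1 or corn oil replicate 2 gave 0.20.

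All 17 probes were also tested one by one over 40478 probes, and none passed, while 0.341% of all probes did. At an unadjusted p under 0.05, 3 member probes differed (2 lower and 1 higher), against 16% of all probes. Of the 6 genes with several probes, none had probes of opposite sign. The other Cd163 probes differed by -0.23 and -0.18, the other Cd5l probe by -0.12, the other C1qa probe by -0.46, the other C1qb probe by -0.26 and the other Cd68 probe by 0.22. The spread between probes of a gene was at most 0.28 (C1qc) and at least 0.03 (C1qb).

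**Figure D2:**
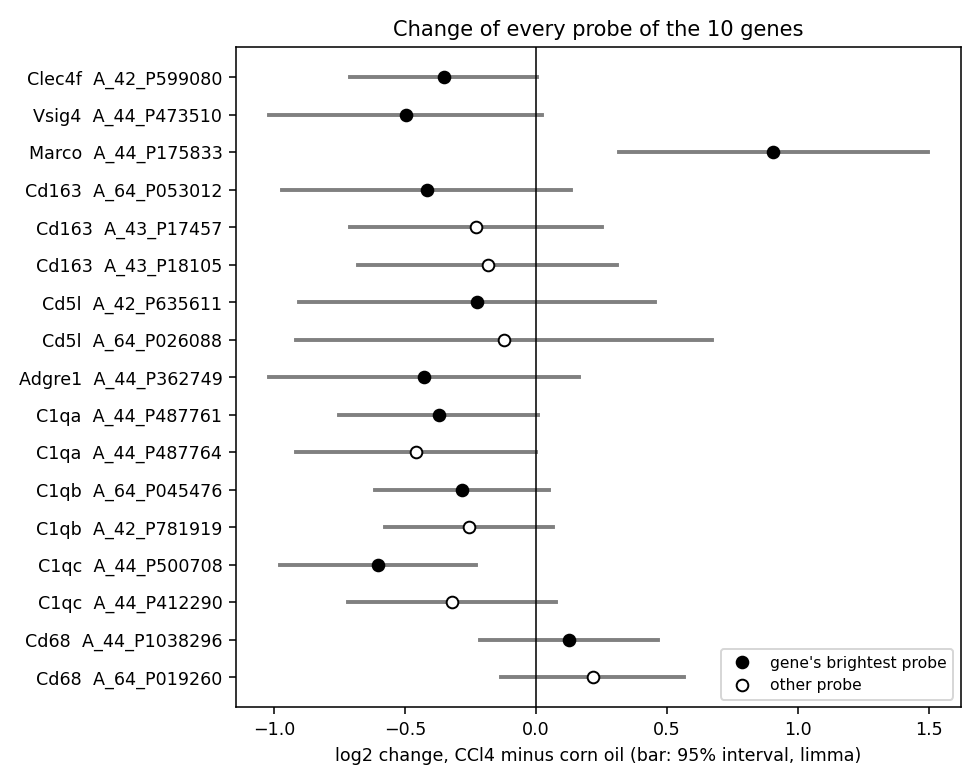
Log2 difference, CCl4 minus corn oil (x axis), of all 17 probes with the 95% interval from limma; filled points are the brightest probe of a gene and open points its other probes. The Marco probe stands alone to the right, 14 of 17 probes are left of 0, and probes of 1 gene stay on the same side.

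The members largely shared an order of animals within each group. Corn oil replicate 1 was the lowest corn oil animal for all 10 members, which held for 35.8% of all genes. CCl4 replicate 3 was the highest CCl4 animal for 9 of 10 (36.5% of all genes), and CCl4 replicate 1 the lowest for 7 of 10 (30.0%). CCl4 replicates 1 and 2 were both below every corn oil animal for 8 of 10 members, against 24.0% of all genes. CCl4 replicate 3 was within the corn oil range for 6 of 10, against 43.4%. The order was not particular to the members. Median deviations put the same animals lowest and highest among other resident Kupffer cell markers and general macrophage genes. They did so too among scavenger receptors outside the members and sinusoidal endothelial genes. The hepatocyte and recruited monocyte lists did not show this order. Because the members share much of this order, their 10 differences are not 10 separate observations.

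**Figure D3:**
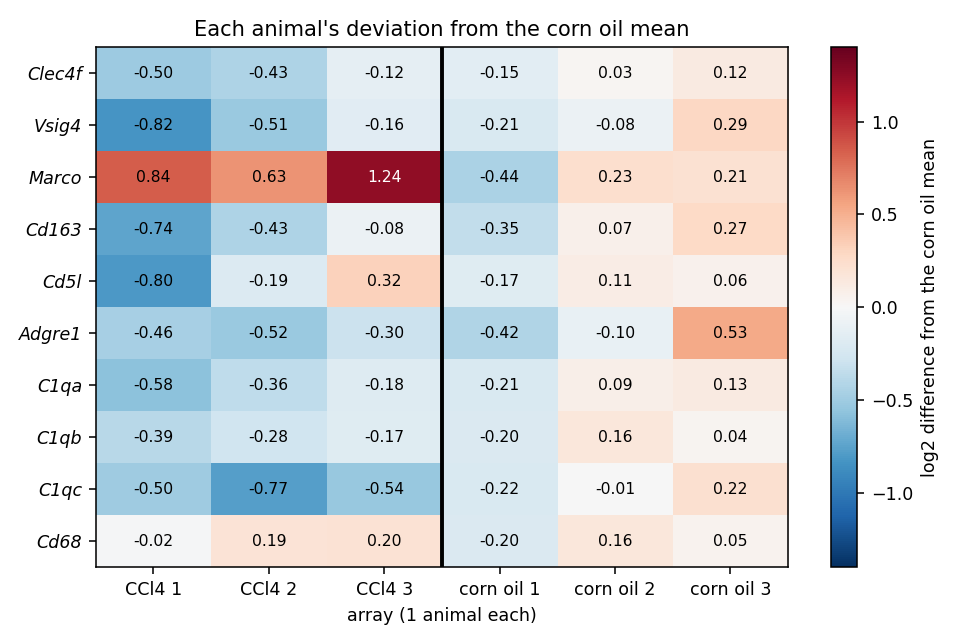
Difference of each animal from the corn oil mean on the log2 scale (colour and printed value), with genes as rows, CCl4 animals in the left columns and corn oil animals in the right columns. Apart from Marco and Cd68, the columns of CCl4 replicates 1 and 2 are below 0 throughout, CCl4 replicate 3 is nearer to 0 than CCl4 replicate 1 for 7 of these 8 genes (not C1qc), and corn oil replicate 1 is below 0 for every gene.

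The size of most differences depended on single animals, and none of the 10 passed with any 1 animal left out. Without CCl4 replicate 3 the 8 negative members were further below 0, among them -0.47 for Clec4f, -0.67 for Vsig4, -0.58 for Cd163, -0.50 for Cd5l and -0.47 for C1qa. Without CCl4 replicate 1, 7 of the 8, all but C1qc, were nearer to 0 or past it, with -0.28 for Clec4f, -0.34 for Vsig4, -0.26 for Cd163, 0.06 for Cd5l, -0.41 for Adgre1, -0.27 for C1qa and -0.23 for C1qb. Without corn oil replicate 3 the differences were -0.29 for Clec4f, -0.35 for Vsig4, -0.28 for Cd163 and -0.17 for Adgre1, and without corn oil replicate 1 they were -0.43, -0.60, -0.59 and -0.64 for the same genes. Over the 6 such fits C1qc ranged from -0.71 to -0.49, C1qb from -0.38 to -0.20 and Marco from 0.68 to 1.04. On the first slide, which holds CCl4 replicate 1 and all corn oil animals, the differences were -0.50 for Clec4f, -0.82 for Vsig4, -0.74 for Cd163, -0.80 for Cd5l, -0.46 for Adgre1, -0.58 for C1qa, -0.39 for C1qb and -0.50 for C1qc. On that slide Marco was at 0.84 and Cd68 at -0.02. The second slide has no corn oil array, so it gives no difference of its own. For 7 of the 8 negative members, all but C1qc, the difference on the first slide was further below 0 than over all arrays.

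Cd68 had the smallest difference of the members, and the others were also set against it on the same array, a comparison added after the values were seen. The size of such a ratio has no meaning between probes, but its difference between groups does not depend on the scaling of an array. For C1qb the log2 ratio to Cd68 was 2.14, 2.03 and 2.14 in CCl4 livers, against 2.51, 2.51 and 2.50 in corn oil livers. For C1qa it was 0.48, 0.49 and 0.67 in CCl4 livers, against 1.04, 0.98 and 1.12 in corn oil livers. For Clec4f it was 2.10, 1.96 and 2.26 in CCl4 livers, against 2.64, 2.45 and 2.66 in corn oil livers. In each of these the groups no longer overlapped.

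Relative to Cd68, 7 of the 9 other members were lower in every CCl4 animal than in any corn oil animal, against 16.4% of all genes on the same scale. Marco was higher without overlap (5.98% of all genes), and Cd5l overlapped. The differences were -0.48 ± 0.18 for Clec4f, -0.62 ± 0.21 for Vsig4, -0.50 ± 0.17 for C1qa, -0.41 ± 0.17 for C1qb, -0.73 ± 0.20 for C1qc and 0.78 ± 0.22 for Marco. None of the 9 passed over all genes (limma adjusted p from 0.130 to 0.463, with 1.35% of all genes called on this scale), and 8 were under 0.05 unadjusted, as were 15.9% of all genes. The count of 8 depended on single animals. Dropping corn oil replicate 3 left 2 members under 0.05, as did dropping CCl4 replicate 2, and dropping CCl4 replicate 1 left 4. Dropping any other animal left 6 or 7, and all 9 differences kept their sign in these fits. This scale moved the median of all genes to -0.17, so part of each value is that shift. A ratio shows unequal change of the 2 genes and does not say which of them differed.

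**Figure D4:**
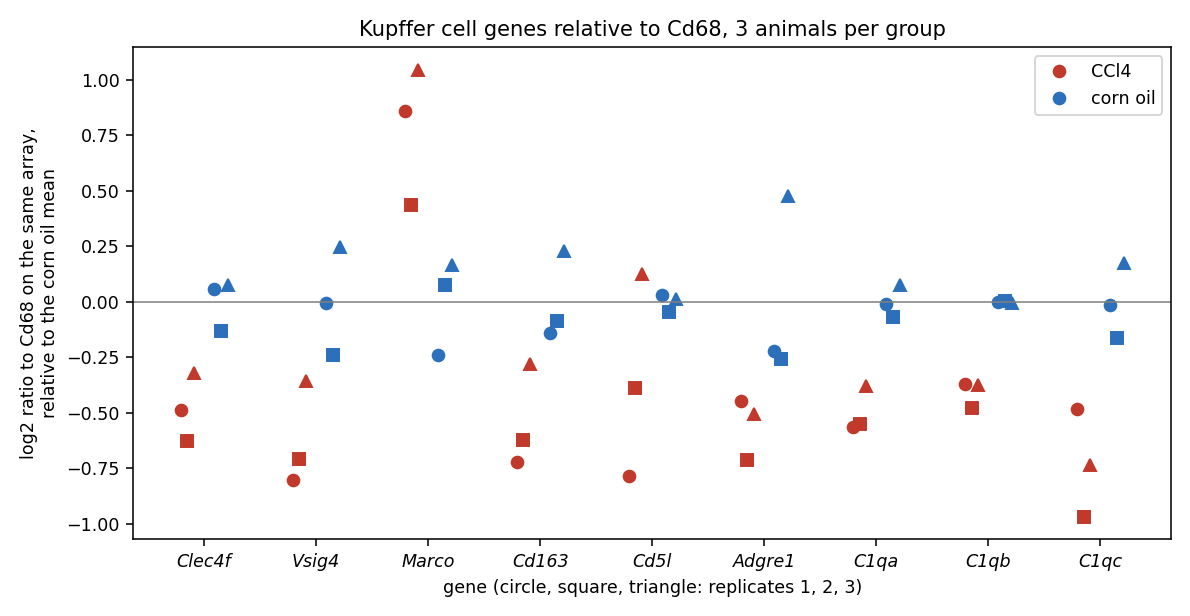
Log2 ratio of each member to Cd68 on the same array, drawn relative to the corn oil mean (y axis), for the 3 CCl4 animals (red) and the 3 corn oil animals (blue); shapes give the replicate number. The CCl4 points lie below all corn oil points for 7 genes, above them for Marco, and among them for Cd5l.

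The rest of the resident Kupffer cell programme showed no common direction. Of 15 other resident markers tested, 0 passed in either direction (limma), 8 were below 0 and 7 above, and the median was -0.07. At an unadjusted p under 0.05, 3 were lower and 0 higher, against 9.77% and 9.95% of all genes. Fcna, a ficolin that binds bacterial sugars, measured 0.66, 0.67 and 1.59 in CCl4 animals and 1.59, 1.62 and 2.07 in corn oil animals (-0.79 ± 0.29, limma adjusted p = 0.219). As with the members, CCl4 replicates 1 and 2 were low and CCl4 replicate 3 was not. Cfp, the complement factor properdin, was at -0.56 ± 0.19 and Siglec1, a sialic acid receptor of resident macrophages, at -0.28 ± 0.11, both without overlap and without passing. Csf1r, the receptor that macrophages need to survive, was at 0.01 ± 0.24, the mannose receptor gene Mrc1 at -0.16 ± 0.27, the iron exporter gene Slc40a1 at -0.07 ± 0.15 and the folate receptor gene Folr2 at 0.34 ± 0.20. Timd4 was not matched to a probe.

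Of 13 transcription factors of Kupffer cells and macrophages, 0 passed (limma) and the median was -0.06. At an unadjusted p under 0.05, 1 was lower and 1 higher, against 9.77% and 9.95% of all genes. Nr1h3, which encodes LXR-alpha, a nuclear receptor that Kupffer cell identity depends on in mice, was at -0.12 ± 0.13, although hepatocytes also use it. Spi1, the gene of PU.1, was at 0.29 ± 0.16 and Maf at 0.23 ± 0.20. Of 11 niche signals, 1 was higher unadjusted (9.95% of all genes were) and 0 passed (limma). Among these the macrophage growth factors Csf1 and Il34 were at -0.14 ± 0.13 and -0.01 ± 0.20. The monocyte attractant Ccl2 measured -0.61, -0.37 and 0.35 in CCl4 livers, all above the -2.13, -1.80 and -2.51 of corn oil livers, and just missed the threshold at 1.93 ± 0.29 (limma adjusted p = 0.0558).

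General macrophage genes lay mostly above 0. Of 13 general macrophage and myeloid genes 11 were above 0, with a median of 0.31, yet 0 passed (limma). Without overlap 4 were higher, as were 11.5% of all genes. At an unadjusted p under 0.05, 5 were higher, as were 9.95% of all genes. Their summed signal, in multiples of the 75th percentile, was 143 to 162 in CCl4 animals and 105 to 126 in corn oil animals. The same sum over the 10 members was 145 to 183 in CCl4 animals and 172 to 210 in corn oil animals. Such sums weigh the brightest probes most, among the members those of Clec4f and C1qb, and do not describe each gene of a list. Lyz2, the lysozyme gene of myeloid cells, had the largest difference of the general macrophage list, with 5.31, 4.90 and 5.28 in CCl4 animals and 4.22, 4.33 and 4.08 in corn oil animals (0.96 ± 0.15, limma adjusted p = 0.0564). Its probe is also among the brightest of that list, so Lyz2 weighs heavily in the difference between the sums.

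Centred on the mean of those 13 genes, again a scale added after the values were seen, 9 of the 10 members were lower without overlap and Marco was higher, against 34.2% and 3.19% of all genes. None passed (limma adjusted p from 0.0594 to 0.450, with 2.05% of all genes called), and 9 were under 0.05 unadjusted, as were 32.7% of all genes. The median of all genes moved to -0.35. Cd68 was at -0.18 on this scale, opposite in sign to its value on the usual one.

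Of 12 genes of scar- and lipid-associated macrophages 5 rose and 0 fell, with a median of 1.20, where 0.637% of all genes were called. Without overlap, 6 were higher and 2 lower, against 11.5% and 15.9% of all genes. The 2 lower ones were Apoe (-0.26 ± 0.11) and Plin2 (-0.19 ± 0.11), and neither passed. Trem2, a lipid-sensing receptor, measured -0.14, 0.13 and 0.42 in CCl4 animals and -4.56, -4.53 and -3.50 in corn oil animals (4.33 ± 0.32, limma adjusted p = 0.0106). Gpnmb, a lysosomal glycoprotein gene, was at 3.04 ± 0.42, the galectin gene Lgals3 at 2.36 ± 0.15 and the lipoprotein lipase gene Lpl at 1.56 ± 0.17. Mmp12, the macrophage elastase gene, was not well above background in any corn oil liver and was at least 36.1-fold higher in CCl4 livers, where the corn oil side of the bound is, per array, the higher of its own signal and the lowest signal of any probe above background. Of 11 recruited monocyte genes 1 rose, the adhesion receptor gene Cd44 (2.21 ± 0.23, limma adjusted p = 0.0252), while 6 were above 0 and 5 below, with a median of 0.22. The 5 below 0 were Cd14 (-0.69 ± 0.39), S100a8 (-0.58 ± 0.49), S100a9 (-0.40 ± 0.46), Fn1 (-0.23 ± 0.16) and Cx3cr1 (-0.05 ± 0.24), of which none passed and the last 2 were named after their values were seen. Itgam, the CD11b gene, was at 1.99 ± 0.35 without passing, and 2 of its 3 corn oil values were well above background. Ccr2, the receptor for Ccl2, was well above background on 2 of 3 CCl4 arrays and 1 of 3 corn oil arrays. The monocyte genes Itgax and Ms4a7 were not matched to a probe, and some others did not pass the filter on dim probes. None of these 6 calls held on the first slide alone, where Trem2 was at 4.06 (limma adjusted p = 0.149), and none held without CCl4 replicate 1 or without CCl4 replicate 2. Some of these genes are also expressed by other liver cells, and the part that recruited cells have in the members' levels was not tested.

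**Figure D5:**
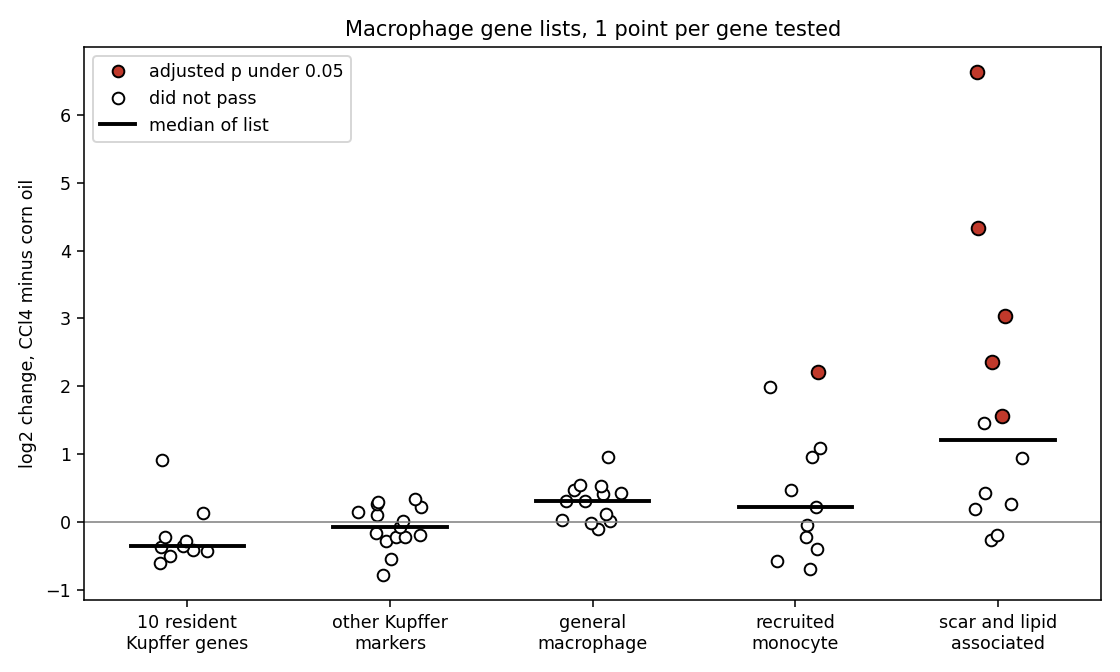
Log2 difference, CCl4 minus corn oil (y axis), of every gene tested in 5 macrophage lists; filled points passed at an adjusted p under 0.05 and bars are list medians. The medians are -0.36 for the resident Kupffer genes, -0.07 for other Kupffer markers, 0.31 for general macrophage genes, 0.22 for recruited monocyte genes and 1.20 for scar and lipid associated genes; the highest point, Mmp12, is drawn at its fitted value and not at its bound.

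The partners of the members in their pathways were tested as well. Of 12 genes of the C1 complex and its regulators and receptors 0 passed (limma), with a median of -0.09. At an unadjusted p under 0.05, 1 was higher, as were 9.95% of all genes. C1r and C1s, the proteases that join C1q and that hepatocytes make, were at -0.18 ± 0.16 and -0.12 ± 0.12. Of 9 scavenger receptors outside the members, Cxcl16 rose (1.63 ± 0.17, limma adjusted p = 0.0252) and the median was 0.42. Over all genes tested, 0.637% passed in either direction. The oxidised lipoprotein receptor gene Olr1 was well above background on 3 of 3 CCl4 arrays and 1 of 3 corn oil arrays and did not pass. Scarb1, the HDL receptor gene, was at -0.43 ± 0.15. Of 13 genes that clear haemoglobin and iron 1 fell, the hepcidin gene Hamp, a hepatocyte hormone gene (-2.12 ± 0.21, limma adjusted p = 0.0252). Haem oxygenase Hmox1, which degrades the haem that Cd163 brings in, was at -0.20 ± 0.17.

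The lists of other liver cell types held few called genes. All 11 hepatocyte genes were below 0, with a median of -0.24 and a summed signal of 5071 to 5716 in CCl4 animals and 6180 to 6520 in corn oil animals, but 0 passed (limma; 2 lower unadjusted). The median was 0.06 over 8 sinusoidal endothelial genes, 0.20 over 10 stellate cell and myofibroblast genes, 0.50 over 5 bile duct genes, 0.35 over 6 dendritic cell genes and -0.40 over 5 neutrophil genes, and 0 passed in each (limma). At an unadjusted p under 0.05, 1 endothelial gene was lower, and 4 stellate cell genes and 1 bile duct gene were higher. Of the dendritic cell genes 3 were higher and 1 lower, and of the neutrophil genes 0 differed. Of all genes 9.95% were higher and 9.77% lower at that level, and 0.637% passed in either direction (limma). Of 11 lymphocyte genes 1 fell, the granzyme gene Gzma (-1.32 ± 0.14, limma adjusted p = 0.0252), and the median was -0.06. The calls of Cxcl16, Hamp and Gzma were each lost on the first slide alone and without CCl4 replicate 1 or 2. The summed endothelial signal was 56.8 to 75.8 in CCl4 animals and 67.2 to 81.5 in corn oil animals, and was highest in replicate 3 of each group. The part of these cells in the members' values was not tested.

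Some members had nearly the same profile over the animals. Likeness was measured as the root mean square distance over the 6 arrays between log2 values centred on each gene's mean. Clec4f and C1qa were 0.06 apart, so that C1qa was the 12th nearest of 11938 genes to Clec4f and Clec4f the 4th nearest to C1qa. Vsig4 and Cd163 were 0.09 apart, the 7th nearest to Vsig4 and the 8th nearest to Cd163. The 3 genes nearest to Clec4f were Kcna7, Nkiras1 and Gckr, all at a distance of 0.04 or 0.05. For Marco the nearest member was Cd68, only the 1326th nearest of all genes, at 0.45. For Cd68 it was C1qb, the 3651st nearest, and for C1qc it was Clec4f, the 369th nearest. With 6 arrays these distances describe the animals measured here and carry no test.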

How the data were processed

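Liver RNA of 6 rats was measured, 1 array each. Per the file headers, each deposited scanner file gives spot intensity from Agilent Feature Extraction (10.7.1.1 in the headers, 10.7 in the submitters' processing notes), background-subtracted and not scaled between arrays; flags for background, saturation and outliers come from the same files. A value table deposited with them gives a linear ratio that was in constant proportion to each array's processed signal; what the authors divided by is not given in the sources used here. It served as an alternative. Column medians were 0.103 to 0.110.

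Symbols came from matching RefSeq accessions to a gene table: of 61537 probes, 28206 (45.8%) had 1 symbol and 33331 none. The table is of a later build than the array design, so no coordinates are given to probes; it served for names and for which genes neighbour each other, and promoter stretches carry its own build (GRCr8). The main values were log2 processed signal minus the array's 75th percentile. Probes well above background on at least 3 of 6 arrays, with no outlier flag, were kept, and the brightest stood for a gene. limma 3.58.1 (R 4.3.3) was fitted to all 6 arrays and p-values were Benjamini-Hochberg adjusted over all genes or all probes. On simulated data for this comparison (11939 genes, 20 runs) it recovered 58.7%, 89.0% and 94.4% of genes changed by 1, 2 and 3 on the log2 scale, with 5.81% false calls. Every member differed by less than 1, and recovery of such sizes was not simulated. The simulated noise was independent between genes and arrays, without effects of slide or animal, so these rates may not hold for the real arrays.

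Per the labels, each array is of its own animal. The members and the gene lists were chosen with earlier results of these data known. All members and probes are named, whatever their values; of each other list, the genes that passed, up to 3 per direction with the largest difference, and a few fixed genes could be named. Alternatives were quantile, median and normexp processing (offset 50, on median spot signals), the value table, 2 filters, averaging the probes of a gene, array weights, a variance trend, slide as a block or alone, a replicate block and leaving out each animal. Centring on Cd68 or on 13 general macrophage genes, and following the other lists' called genes through all settings, were added after seeing the data. Some genes of these lists are not reported here.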

Additional observations from a re-analysis of the deposited data

How the results depend on the processing

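The count of the 10 members that passed was 0, and so was that of their 17 probes, under all 21 alternatives (20 for probes), leave-one-out fits included (0 to 0). At an unadjusted p under 0.05 limma gave 2 to 9 members and 2 to 14 probes. The 9 came with centring on 13 general macrophage genes, where 32.7% of all genes were under 0.05. In the main fit 4 members were, where 9.77% of all genes were lower and 9.95% higher at that level. Of 209 values of single members, 205 kept their direction, and the lowest adjusted p was 0.0594. The exceptions were Cd68, at -0.018 with slide as a fixed block and on the first slide alone and at -0.18 centred on 13 general macrophage genes, and Cd5l, at 0.064 without CCl4 replicate 1 (-0.50 to 0.064 over the leave-one-out fits). With quantile normalization Clec4f was at -0.30 and 2 members in place of 4 were under 0.05 unadjusted. The number of all genes changed, 76, depended more on the processing. It was 214 under normexp, 139 with the filter on all 6 arrays, 156 with a variance trend, 128 with array weights, 161 centred on Cd68 and 245 centred on 13 general macrophage genes. It was 4 with slide as a fixed block and 0 on the first slide alone (limma; 1598 unadjusted), and 2 to 241 when 1 animal was left out, namely 6, 2 and 241 as CCl4 replicate 1, 2 or 3 was dropped, and 27, 43 and 5 as corn oil replicate 1, 2 or 3 was. The cause was not tested. With the replicate number as a block, 10 genes and 0 members passed. Same-numbered arrays had correlations of -0.05, 0.16 and 0.02 in their deviations from the group means, and other pairs ran from -0.18 to 0.15. Whether same-numbered animals shared more than a number was not tested. The 9 called genes of other lists kept their direction throughout, but none passed with slide as a fixed block or on the first slide alone, and each lost its call when CCl4 replicate 1 or 2 was dropped; 1 (Gpnmb) lost it when CCl4 replicate 3 was, and 6, 2 and 8 when corn oil replicate 1, 2 or 3 was. Having 3 animals a group and 1 treated animal on the shared slide limit every value.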
